A study of Homo sapiens with 2 samples.

Results

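Ephrin receptors (Eph receptors) and their ligands, the ephrins, were examined for LSD1 binding in a metastatic prostate cancer line. The 10 genes described were the receptor genes EPHA1, EPHA2, EPHA4, EPHB2, EPHB3 and EPHB4 and the ligand genes EFNA1, EFNA5, EFNB1 and EFNB2, out of 22 Eph receptor and ephrin genes and of 19856 protein-coding genes in all. The members were chosen by the LSD1 peaks at them, with the peak list in view, so their peak counts and shares are a description and carry no test. A peak was counted at a gene when it overlapped the gene body or lay within 10 kb of it. By this count 24 of the 20110 LSD1 peaks lay at these genes.

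The study measured LSD1 by chromatin immunoprecipitation and sequencing (ChIP-seq), which recovers DNA bound by a protein, in PC-3M-luc cells, a luciferase-marked human prostate carcinoma line of the PC-3 lineage. There was 1 LSD1 library, made with an Abcam antibody, and 1 library of input DNA, both of genotype labelled Control, from cells at passages 17 to 20 and with no treatment named. LSD1 (KDM1A) is a demethylase acting on lysine 4 of histone H3, found in corepressor complexes such as CoREST. With 1 library per group no value has a replicate check, no test was possible and the read depth is unknown. Where a gene is given as having no peak, signal below the caller's threshold remains possible, and DNA copy number was not examined. The score of a peak is the authors' value from their peak caller and was used here only to rank and describe peaks within the list. A peak list gives no RNA level, so the identity of the cells could not be checked against marker genes.

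Eph receptors form the largest family of receptor tyrosine kinases. They bind ephrins on neighbouring cells, and signals run both into the receptor-bearing cell and into the ephrin-bearing cell, which steers cell repulsion, adhesion and tissue boundaries. A-type ephrins are held to the membrane by a lipid anchor and B-type ephrins span it. EPHA2 and its ligand EFNA1 are the pair most often studied in carcinomas, and EPHB4 and EFNB2 are known for the separation of veins from arteries.

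The promoters of 4 members show the span of the findings: EPHA2, whose promoter lay inside a peak covering much of the gene, EFNB2, whose single peak was a narrow promoter peak, EPHB3, which had no peak at all, and EPHA1, which had peaks at its 3′ end and upstream but none at its start. Each sequence is the 300 bases just upstream of the canonical transcription start site (TSS), read from hg19 in the direction of the gene, and capitals mark matches to any of 5 searched motifs. The windows are chr1:16482565-16482864 for EPHA2, chr13:107188011-107188310 for EFNB2 and chr7:143105950-143106249 for EPHA1, all on the minus strand, and chr3:184279273-184279572 for EPHB3 on the plus strand.
EPHA2: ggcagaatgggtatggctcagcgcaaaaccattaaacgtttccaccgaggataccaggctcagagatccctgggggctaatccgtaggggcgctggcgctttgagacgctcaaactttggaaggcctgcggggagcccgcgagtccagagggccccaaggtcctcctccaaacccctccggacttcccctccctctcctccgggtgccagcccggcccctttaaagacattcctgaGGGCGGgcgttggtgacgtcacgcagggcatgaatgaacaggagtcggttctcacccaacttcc
EFNB2: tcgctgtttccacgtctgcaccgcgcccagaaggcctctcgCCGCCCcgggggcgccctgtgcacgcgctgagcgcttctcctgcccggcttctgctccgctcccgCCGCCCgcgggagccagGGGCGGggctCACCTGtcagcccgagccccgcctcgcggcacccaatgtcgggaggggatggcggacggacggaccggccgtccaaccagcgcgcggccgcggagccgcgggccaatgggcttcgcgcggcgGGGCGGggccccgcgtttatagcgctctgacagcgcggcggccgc
EPHB3: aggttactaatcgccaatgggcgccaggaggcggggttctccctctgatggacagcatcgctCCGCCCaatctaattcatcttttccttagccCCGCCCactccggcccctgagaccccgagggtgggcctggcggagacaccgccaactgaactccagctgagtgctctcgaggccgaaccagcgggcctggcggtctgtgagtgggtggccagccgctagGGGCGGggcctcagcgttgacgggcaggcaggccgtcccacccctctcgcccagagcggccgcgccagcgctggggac
EPHA1: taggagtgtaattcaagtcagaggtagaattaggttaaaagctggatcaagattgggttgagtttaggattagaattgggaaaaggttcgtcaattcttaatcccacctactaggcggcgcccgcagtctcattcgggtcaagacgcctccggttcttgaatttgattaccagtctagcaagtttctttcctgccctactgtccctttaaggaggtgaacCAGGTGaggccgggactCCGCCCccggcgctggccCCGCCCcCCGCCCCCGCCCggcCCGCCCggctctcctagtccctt
All 300 bases of the EPHA2 and EFNB2 windows lay under a peak, and 0 bases of the EPHB3 and EPHA1 windows did. The EPHA2 and EPHA1 windows also fall within the antisense RNA genes EPHA2-AS1 and EPHA1-AS1. The motifs were GGGCGG (the GC box of SP and KLF factors, the same as CCGCCC on the other strand), CACCTG (an E-box bound by SNAI and ZEB repressors), CACGTG (the E-box of MYC), CCGGAAG (ETS factors) and TGACTCA (AP-1, FOS and JUN dimers), each searched on both strands. A match describes letters and is no evidence of a bound factor. GC box matches numbered 1 in EPHA2, 4 in EFNB2, 3 in EPHB3 and 5 in EPHA1, and 10 of the 10 members held at least 1, against 60.9% of all protein-coding promoters of this length and 82.7% of CpG-rich ones. The CACCTG element was in 3 members (EPHA1, EPHB2 and EFNB2), against 21.0% of all promoters, and the other motifs were in 0 members, against 3.58% (TGACTCA), 8.88% (CACGTG) and 12.8% (CCGGAAG). The EPHB3 and EPHA1 promoters, which were not under a peak, carried the GC box letters, as did the promoters under peaks. Whether the GC box bears on the presence of a peak was not tested.

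Peaks were present at 9 of the 10 members, where 67.9% of all protein-coding genes had a peak by the same count. A peak covered the canonical TSS of 8 members (EPHA2, EPHA4, EPHB2, EPHB4, EFNA1, EFNA5, EFNB1 and EFNB2), against 54.3% of all genes. The remaining 16 peaks comprised 4 running from the gene's 3′ part into the flank, 4 within the gene body, 4 upstream and 4 downstream. EPHA2 had 7 peaks, a number reached or passed by 1.88% of all genes, and EPHB4 and EFNB1 had 4 each, reached or passed by 13.0% of all genes. EPHA1, EPHB2 and EFNA1 had 2 each, EPHA4, EFNA5 and EFNB2 had 1 each, and EPHB3 had 0. The median member had 2 peaks, and the median was 1 over all genes and 2 over genes with a peak. Counting only peaks with a score of at least 100, EPHA2 had 5 and EPHB4 and EFNB1 had 2 each. The shares of all genes given above are for peaks of any score. Counting every annotated start site in place of the canonical one, peaks covered 4 of 4 at EPHA2, 4 of 13 at EPHA4, 3 of 6 at EPHB2, 5 of 9 at EPHB4, 3 of 4 at EFNA1, 3 of 5 at EFNA5, 1 of 1 at EFNB1 and 1 of 2 at EFNB2. At EPHA1 the count was 1 of 7, an alternative start near the 3′ end, and at EPHB3 0 of 3.

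**Figure D1:**
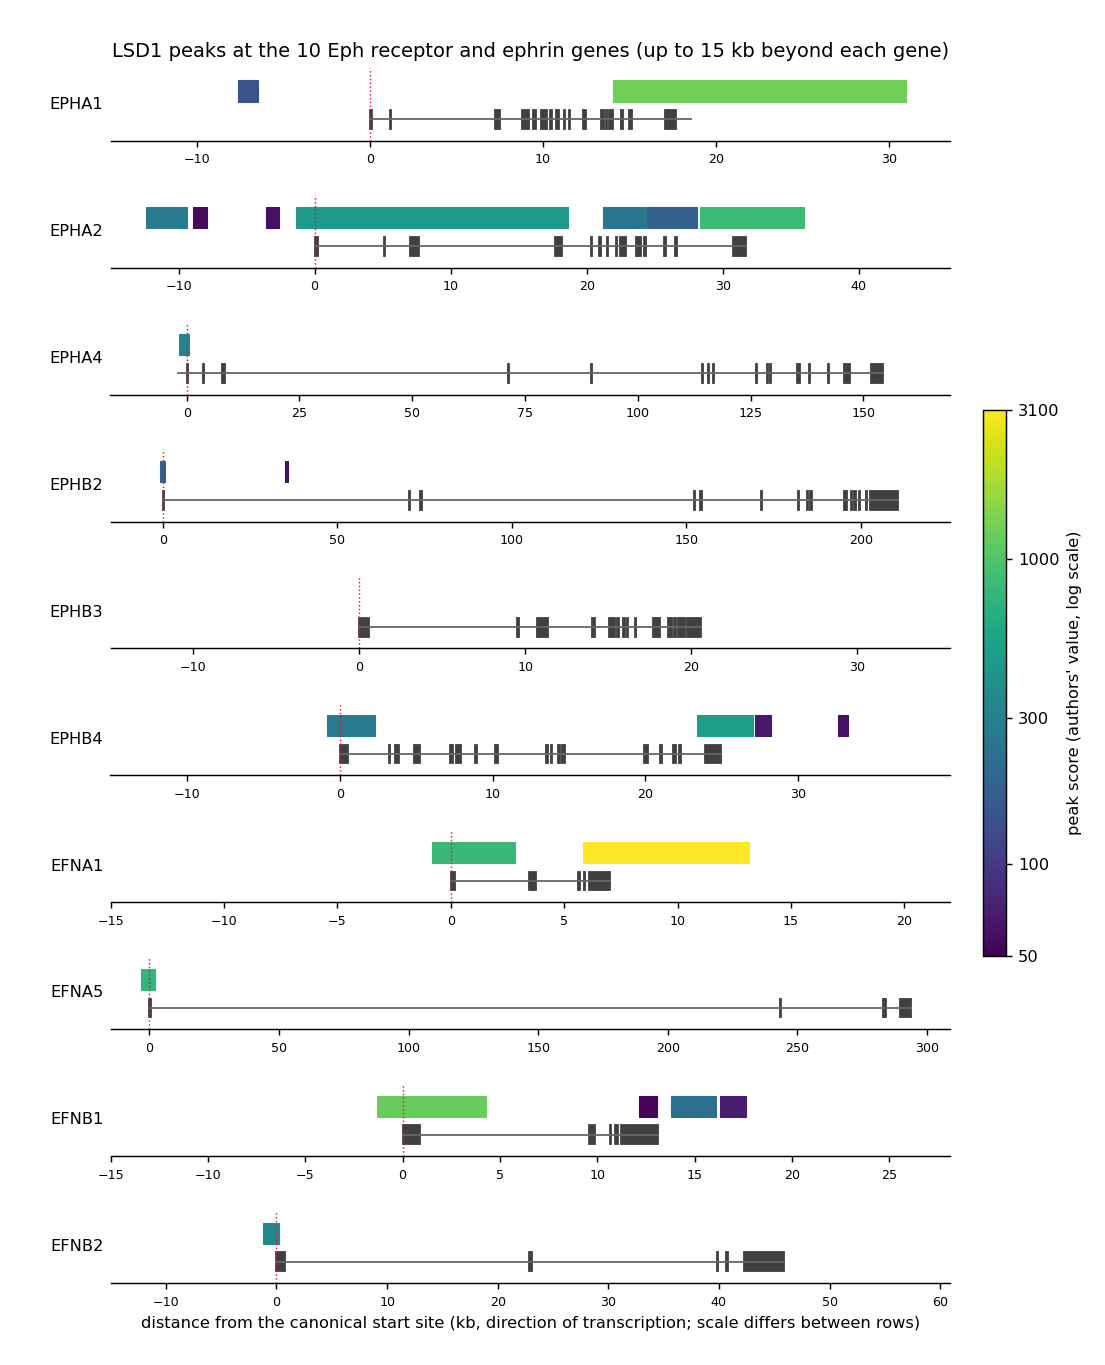
Each row is 1 gene, drawn from the canonical start site (dotted line, 0 kb) in the direction of transcription, with its own scale in kb; lower boxes are exons of the canonical transcript and upper boxes are LSD1 peaks coloured by the authors' score on a log scale. Peaks sit over the start site of 8 genes, run along most of EPHA2, cover the 3′ ends of EPHA1, EPHB4 and EFNA1, and are missing at EPHB3.

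EPHA2 was almost wholly covered. The gene lies on the minus strand of chromosome 1 (hg19, 16450832 to 16482564, ENSG00000142627) and 28868 of its 31733 bases, or 91.0%, were under 4 peaks. The share was at the 97.2nd percentile of all genes, and among the 9162 genes at least as long as EPHA2, itself included, no other had a share this high. Counted in bases of gene body under peaks, EPHA2 ranked 26 of 19856. Peaks reached 15 of its 17 exons, all but exons 6 and 7, and covered 93.2% of exon bases and 90.7% of intron bases.

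The widest EPHA2 peak spanned 19974 bp (16463962 to 16483935, score 455.81), from 1371 bp upstream of the TSS to 18602 bp inside the gene, over exons 1 to 5. Only 11 of the 20110 peaks were wider, while 5947 had a higher score. A 3200 bp peak (16458195 to 16461394, score 253.25) lay over exons 8 to 14 and a 3661 bp peak (16454471 to 16458131, score 184.43) over exons 15 and 16. The 4th body peak, 7646 bp wide (16446590 to 16454235), covered exon 17 and ran past the 3′ end of the gene, with the highest score of the 7, 832.76. Gaps between these peaks were 2567, 63 and 235 bp, so the coverage was close to continuous and its division into peaks is that of the caller. When peaks less than 1 kb apart were counted as 1, EPHA2 had 4. Without its widest peak the share under peaks was 32.3%.

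Upstream of EPHA2 lay 3 further peaks. They were 990 bp wide at 2582 bp from the gene (score 59.14), 1043 bp at 7918 bp (score 55.25) and 2980 bp at 9380 bp (16491945 to 16494924, score 272.51). The first of them covered the start of a long non-coding RNA gene, ENSG00000224621, and the widest peak also covered the start of EPHA2-AS1. Those at 59.14 and 55.25 stood near the lowest score of the list, at percentiles 9.46 and 6.01. The peak at 9380 bp was the member peak closest inside the 10 kb limit. Closest outside it were a peak 12521 bp past the 3′ end of EPHA1 (score 110.3) and a peak 16681 bp upstream of EPHA2 (score 103.16).

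**Figure D2:**
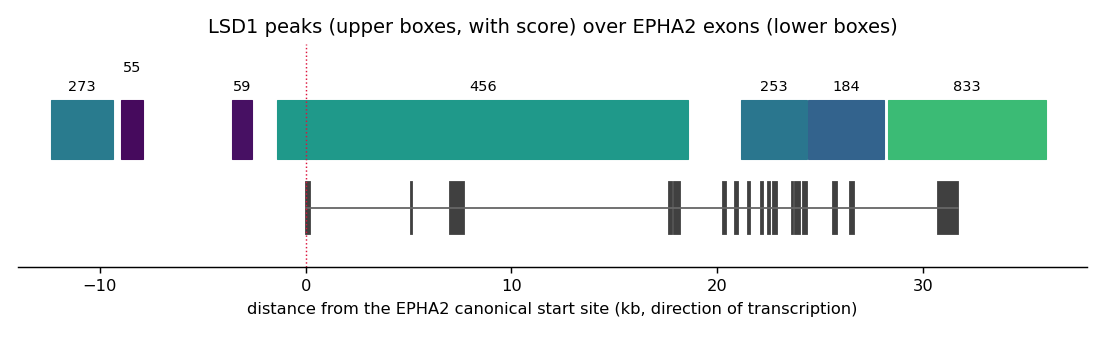
LSD1 peaks (upper boxes, the authors' score printed above) and exons of the canonical transcript (lower boxes) along EPHA2, in kb from the start site (dotted line). The 4 body peaks cover 91.0% of the gene, and the widest break between them, 2567 bp, holds exons 6 and 7.

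The other A-type receptor genes differed from EPHA2 and from each other. EPHA1, the founding member of the family (chromosome 7, 143087382 to 143105949, minus strand, ENSG00000146904), had 24.4% of its body under a single peak of 16996 bp at its 3′ end (143074919 to 143091914, score 1258.38), which reached exons 14 to 18. That peak covered 100% of the neighbouring gene ZYX and its TSS at 143078438. ZYX encodes zyxin, a protein of focal adhesions. Only 4533 of the peak's bases fell in EPHA1, so the peak cannot be assigned to either gene alone. No peak lay at the canonical EPHA1 TSS, and the nearest was 6492 bp upstream (143112441 to 143113562, score 143.99), inside EPHA1-AS1. Without the widest 1% of peaks the EPHA1 body had a share of 0.

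EPHA4, a receptor that binds ephrins of both types, had only a promoter peak (chromosome 2, 222436528 to 222438657, 2130 bp, score 326.08). Its gene body (222282747 to 222438922, minus strand, ENSG00000116106) was under peaks for 1.36% of its 156176 bases. This value includes sequence between the canonical TSS at 222437024 and an alternative start further upstream, and with the canonical transcript as gene body it was 0.322%. The same peak covered the start of a long non-coding RNA gene on the other strand, ENSG00000272944. The next peaks lay 982468 bp upstream and 1728785 bp downstream of EPHA4.

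Among the B-type receptor genes, EPHB4 had the most peaks and EPHB3 none. EPHB4 (chromosome 7, 100400187 to 100425145, minus strand, ENSG00000196411) had a peak of 3114 bp over its TSS and exon 1 (100422860 to 100425973, score 269.46) and a wider, higher-scoring peak of 3675 bp over exon 17 and the sequence past the 3′ end (100398094 to 100401768, score 488.31). Another 2 peaks lay 2246 and 7670 bp past the 3′ end with scores of 64.83 and 59.15, both low in the list. Counted with adjoining peaks joined, EPHB4 had 3 peaks in place of 4. In all, 15.5% of the gene body was covered. The promoter peak overlapped SLC12A9, a transporter gene annotated from 100424442 on the opposite strand, but not the canonical TSS of that gene at 100450335.

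EPHB2, a receptor known for positioning cells in the intestinal crypt, had a peak of 1424 bp at its TSS (chromosome 1, 23036465 to 23037888, score 181.43), the lowest-scoring of the 8 TSS peaks. A 993 bp peak lay in intron 1 at 34952 bp from the TSS (score 60.8). Together they covered 0.736% of the 210662 bp gene (23037332 to 23247993, plus strand, ENSG00000133216). The next peak downstream, 97120 bp past its end, was the peak over the promoter of KDM1A, the gene of LSD1 itself (23345114 to 23347203, score 877.5). At EPHB3, a receptor that acts alongside EPHB2 in the crypt (chromosome 3, 184279573 to 184300196, plus strand, ENSG00000182580), 0 of 20624 bases were covered. The nearest peaks were 189435 bp upstream (score 64.82) and 129074 bp downstream (score 79.88) of the gene.

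The 4 ligand genes among the members all carried a peak over their canonical TSS, as did 54.3% of all protein-coding genes. Of the ligand genes outside the members, EFNA4 had a peak there and EFNA2, EFNA3 and EFNB3 had none. EFNA1 (chromosome 1, 155100352 to 155107375, plus strand, ENSG00000169242), a ligand of EPHA2, had 57.7% of its 7024 bases under 2 peaks, at the 94.4th percentile of all genes. The TSS peak was 3660 bp wide (155099538 to 155103197, score 812.99) and reached 2845 bp past the TSS, into intron 1. The second, 7315 bp wide (155106172 to 155113486), covered exons 4 and 5 and had a score of 3100, a value shared by 206 peaks and exceeded by 19. It also covered the canonical TSS of SLC50A1, a sugar transporter gene, at 155108328 and of DPM3, a gene of dolichol-phosphate mannose synthesis, at 155113007. Only 1204 of its bases were in EFNA1, so this score cannot be given to EFNA1 alone. EFNA1 and EPHA2 were the 2 members with at least 50% of the gene body covered, as were 6.54% of all genes. EFNA1 passed 50% only with the 1204 bases of the peak shared with SLC50A1 and DPM3. Its TSS peak alone covered 2846 of the 7024 bases.

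EFNB1, a transmembrane ligand encoded on the X chromosome (68048864 to 68062003, plus strand, ENSG00000090776), had the highest score over a TSS among members. The peak was 5603 bp wide (68047561 to 68053163, score 1181.68), reached 4299 bp into the gene, and made up most of the 40% of the body under peaks. Another 3 peaks lay at the 3′ end of EFNB1: 956 bp in exon 5 (score 51.77), 2321 bp starting 663 bp past the gene (score 219.8) and 1309 bp starting 3179 bp past it (score 68.3). Counted with adjoining peaks joined, EFNB1 had 2 peaks in place of 4.

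EFNA5 and EFNB2 had a promoter peak and nothing else within 10 kb. EFNA5, a lipid-anchored ligand (chromosome 5, 106712595 to 107006638, minus strand, ENSG00000184349), had a 5157 bp peak (107004602 to 107009758, score 746.7) that extended from 3120 bp upstream of the TSS to 2036 bp past it, into intron 1. It covered 0.693% of this 294044 bp gene. EFNB2, the transmembrane ligand of EPHB4 (chromosome 13, 107142093 to 107188010, minus strand, ENSG00000125266), had a 1526 bp peak (107187735 to 107189260, score 340.88) reaching 275 bp past the TSS, within exon 1, and covering 0.601% of the gene. Most of the EFNB2 peak, as of those at EFNA5, EPHB2 and EPHA4, lay upstream of the canonical TSS.

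**Figure D3:**
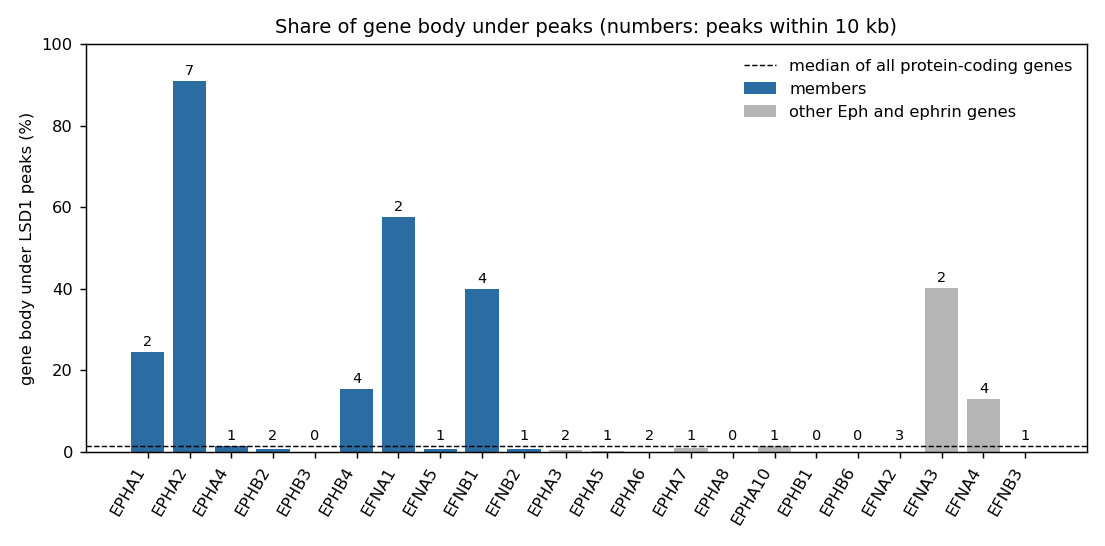
Bars give the percent of each gene body under LSD1 peaks for the 10 members (blue) and the 12 other Eph and ephrin genes (grey), with the number of peaks in the body or within 10 kb printed above; the dashed line is the median of all protein-coding genes, 1.34%. EPHA2 reaches 91.0%, EFNA1 57.7% and EFNB1 40%, while EPHA4, EPHB2, EPHB3, EFNA5 and EFNB2 are between 0 and 1.36%.

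The share of gene body under peaks therefore fell into 2 ranges. In EPHA2, EFNA1, EFNB1, EPHA1 and EPHB4 it ran from 91.0% down to 15.5%, and in EPHA4, EPHB2, EFNA5, EFNB2 and EPHB3 from 1.36% to 0. The first 5 genes were 7024 to 31733 bp long, and the others 20624 to 294044 bp. Gene length enters the share as its denominator: among genes from 0.5 to 2 times the length of each member, EPHA4, EPHB2 and EFNA5 stood at percentiles 67.0, 57.2 and 66.1, EFNB2 at 31.2 and EPHB3 at 17.5. In the same length bands EPHA2 stood at percentile 99.9, EFNB1 at 89.8, EPHA1 at 87.7, EFNA1 at 87.2 and EPHB4 at 85.6. The median share over the 10 members was 8.43%, over all genes 1.34%, and over genes with a peak in the body 4.80%. The member median was 1.05% without the widest 1% of peaks, which removes a peak each from EPHA2 and EPHA1.

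Peaks over the TSS of the members held more CpG than most of their other peaks, as in the list as a whole. The 8 TSS peaks had a median CpG observed-to-expected ratio of 0.702 (0.306 to 1.06), and the 16 others 0.281 (0.122 to 0.422). Over the whole list the medians were 0.706 for peaks over a canonical TSS and 0.279 for the rest. The TSS peaks of EPHA2 (0.306) and EFNA1 (0.412) overlapped the range of the others. They reached 18602 and 2845 bp past the TSS. The TSS peak of EFNB1 reached 4299 bp past it with a ratio of 0.492, above that range. A link between reach and CpG ratio was not tested. Median width was 3387 bp at the TSS and 1815 bp elsewhere, against 1932 and 1390 bp over the list. Median score was 398 at the TSS and 164 elsewhere, against 450 and 101 over the list. Of the 24 peaks, 10 scored below the list's median of 206, among them the TSS peak of EPHB2 and 9 of the 16 others. Peaks wider than 5 kb numbered 6 of 24, where 4.65% of the list was as wide, and EPHA2 alone held 40.1% of the bases under member peaks.

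**Figure D4:**
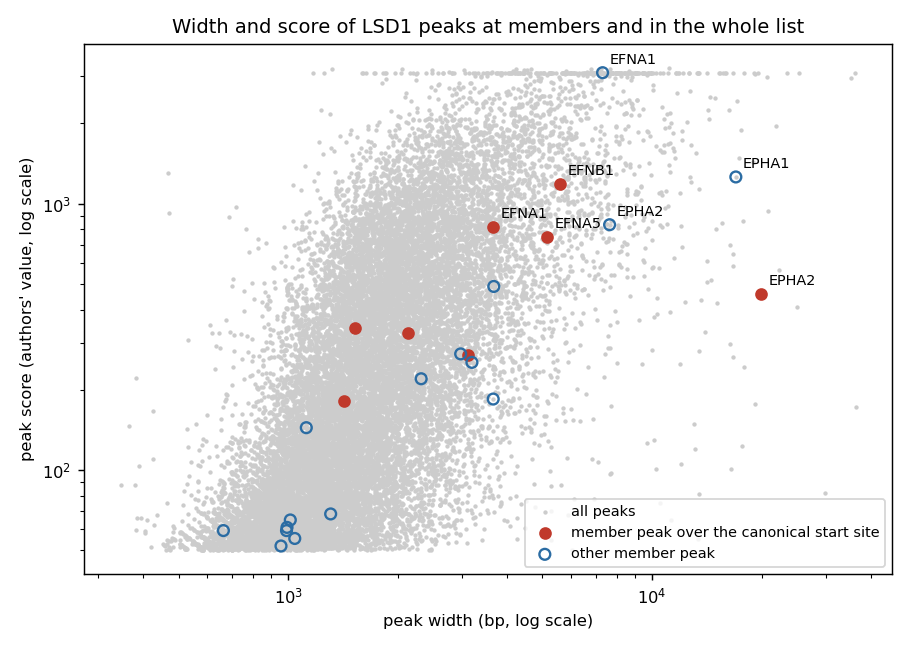
Each grey point is 1 of the 20110 LSD1 peaks, by width in bp and the authors' score, both on log scales; filled red points are the 8 member peaks over a canonical start site and open blue points the 16 other member peaks. The widest EPHA2 peak (19974 bp, score 455.81) and the EPHA1 peak (16996 bp, score 1258.38) lie at the wide edge of the list, and the EFNA1 peak at the 3′ end lies on the repeated score of 3100.

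The AP-1 element, absent from the 300-base promoter windows of the members, occurred elsewhere under their peaks. The 24 peaks held 23 matches to TGACTCA on either strand, in 11 peaks (45.8%, against 29.0% of all peaks). The member peaks were wider than the list, with a median of 2650.5 against 1649 bp, so these shares are not over equal lengths. Per kb there were 0.234 matches, against 0.191 over all peaks and 0.166 in peaks wider than 5 kb. They numbered 7 at EPHA2, 6 at EPHA1, 4 each at EFNA1 and EFNB1, and 1 each at EPHB4 and EFNA5. All matches at EPHA1, EPHB4 and EFNB1 lay outside the gene body. Those at EPHA1 were in its upstream peak or in the part of the ZYX peak outside EPHA1. The EFNA1 matches in the peak shared with SLC50A1 and DPM3, and the EPHA2 matches outside its widest peak, were also outside the gene. The sites in the introns of the receptor EPHA2 and of its ligand EFNA1, and those in the peak just past the 3′ end of EFNB1, are shown with 10 bases on each side in the direction of the gene, the match in capitals. The distances are from the canonical TSS to the first base of the match.
EPHA2 intron 1 at 893 bp, chr1:16481665-16481671 minus: tgagcaagggTGACTCAgaacgaggaa
EPHA2 intron 3 at 10321 bp, chr1:16472237-16472243 minus: ttggaatcccTGACTCAgctcctggcc
EPHA2 intron 3 at 12477 bp, chr1:16470081-16470087 minus: cgtctgtcccTGAGTCAcctcatgctg
EPHA2 intron 3 at 17145 bp, chr1:16465413-16465419 minus: ggctggccagTGAGTCAgggtggtggt
EFNA1 intron 1 at 1801 bp, chr1:155102153-155102159 plus: ctggcatgggTGACTCAggccagtggg
EFNA1 intron 1 at 2060 bp, chr1:155102412-155102418 plus: ggatgaggaaTGAGTCAgtgcccgtca
EFNB1 downstream at 14409 bp, chrX:68063273-68063279 plus: gggtagagccTGACTCAgttgagtgag
EFNB1 downstream at 15196 bp, chrX:68064060-68064066 plus: aagctcctggTGAGTCAgggatacagg
EFNB1 downstream at 15627 bp, chrX:68064491-68064497 plus: acaccctagcTGAGTCAgccccagcct
The 4 EPHA2 sites all lay in its widest peak, and both EFNA1 sites in its TSS peak. The EPHA2 intron 1 site also includes the start site of EPHA2-AS1, at 16481671. The EFNA5 match, in intron 1 of that gene, is not shown. The CACCTG element, a shorter motif than TGACTCA, had 156 matches in 22 of the 24 peaks, where 79.1% of all peaks held it. Its density was 1.58 per kb, against 1.22 per kb over all peaks. At EPHA2 the 7 peaks held 88 of these matches, 2.23 per kb, and the gene body as a whole had 2.36 per kb inside and outside peaks. In peaks wider than 5 kb over the whole list it was 1.47 per kb.

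The promoters of the members were mostly rich in CpG. CpG-rich meant a GC content over 55% and a CpG ratio over 0.65 in the 1000 bp around the canonical TSS. By this rule 9 of the 10 members and 8 of the 12 other family genes were CpG-rich, against 56.6% of all genes. EPHA1 (ratio 0.549) was the member that was not. A peak covered the TSS of all CpG-rich members except EPHB3 (GC 69.9%, ratio 0.83). Over all genes, 75.9% of CpG-rich and 26.0% of CpG-poor promoters had the TSS under a peak. Across the 22 family genes it was 11 of 17 CpG-rich and 1 of 5 CpG-poor genes.

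**Figure D5:**
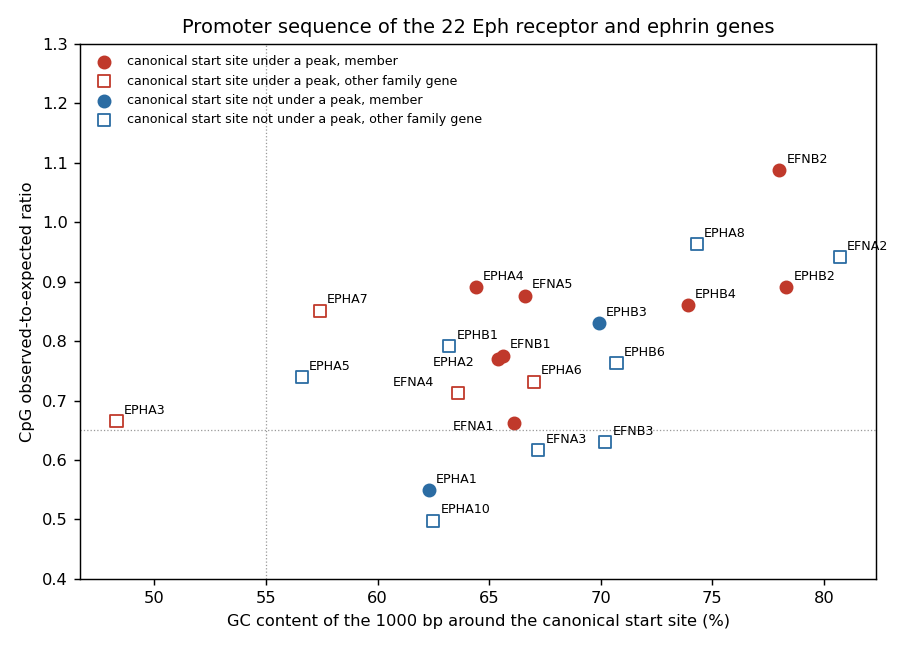
Each point is 1 of the 22 family genes by GC content (%) and CpG observed-to-expected ratio of the 1000 bp around its canonical start site; circles are members, squares the other genes, red marks a start site under a peak, and dotted lines mark 55% and 0.65. EPHB3 is CpG-rich without a peak over its start site, as are the non-members EPHA5, EPHA8, EPHB1, EPHB6 and EFNA2, and EPHA1 lies below the ratio of 0.65.

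The other 12 family genes had a peak by the same count in 9 cases, where 67.9% of all genes had one. A peak covered the canonical TSS of 4 of the 12 (EPHA3, EPHA6, EPHA7 and EFNA4), against 54.3% of all genes. EPHA3, EPHA6, EFNA3 and EFNA4 had 2, 2, 2 and 4 peaks, EFNA2 had 3, EPHA5, EPHA7, EPHA10 and EFNB3 had 1, and EPHA8, EPHB1 and EPHB6 had 0. Their median share of gene body under peaks was 0.161%, against 8.43% in the members, a difference that the choice of members bears on directly. With a score of at least 100, 9 of 10 members and 6 of 12 other genes had a peak, against 62.7% of all genes. At or above the median score the numbers were 8 of 10 and 6 of 12, against 54.9% of all genes, and EPHB2 was the member lost. A peak with a score of at least 100 covered the TSS of 8 members, against 50.3% of all genes, and a peak at or above the median score that of 7, against 42.9%.

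Genes that act with Eph receptors and ephrins were taken from a list of 47 genes for adaptors, exchange factors, GTPases, kinases, phosphatases, proteases and scaffolds. A peak lay in the body or within 10 kb of 38 of them (80.9%, against 67.9% of all genes), and over the canonical TSS of 29 (61.7%, against 54.3%). CpG-rich promoters made up 80.9% of the list and 56.6% of all genes. The highest-scoring peaks over a TSS were at RASA1, a GTPase-activating protein of RAS (2823.85), and CFL1, the actin-severing protein cofilin (2534.98). DVL2, a Dishevelled scaffold (1702.98), YES1 and SRC, kinases of the SRC family (1614.04 and 1255.49), and RHOA, a GTPase of the actin cytoskeleton (1234.66), followed. Without any peak were AFDN, ANKS1B, ARHGEF15, ARHGEF16, NCK2, PTPRO, SDC2, SLA and STAT3, and the DNA copy number of these genes in the cells was not examined. The median share of gene body was 1.15%, beside 1.34% for all genes and 8.43% for the 10 members.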

How the data were processed

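Chromatin from PC-3M-luc cells was profiled in 1 LSD1 library and 1 input library. Per the labels' protocols, the reads came from an Illumina HiSeq sequencer and bowtie 2 aligned them to hg19. MACS 1.41 is listed, beside Bowtie2, in the submitters' processing notes. The threshold, settings and read numbers, and whether input was the control of the peak calls, are not given in the sources used, and depth is unknown. The deposited list gives each peak's position and the authors' score. The score's scale is not stated, and it was used only to rank, filter and describe peaks.

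All 24 chromosomes of the list occur in GRCh37, with 0 peaks past a chromosome end and 0 overlapping pairs. Genes came from GENCODE 44 mapped to GRCh37: 19856 protein-coding symbols with a canonical transcript. Coordinates are 1-based. A peak was counted at a gene with at least 1 base in the gene body or the 10 kb on either side, and the share of gene body is bases under peaks over gene length. Percentiles count ties at their average rank. In simulated data with planted peaks, counts and shares were recovered at 200 of 200 genes. The members and lists were chosen with earlier results of these data known. Every member is named with its TSS peaks and its highest-scoring peak. From the pathway list, the 6 highest-scoring TSS peaks and 6 genes without a peak in alphabetical order were to be named, and the other 3 without a peak were added after their values were seen. The grouping of peaks by place, the AP-1 sites shown and the length bands were also chosen after the values were seen. Alternatives changed the score minimum, the widest peaks, the distance, the joining of adjoining peaks, the overlap and the start site. The software was samtools 1.23.1 and Python 3.11.15 with pysam 0.24.0, pandas 2.3.3, numpy 2.4.6 and matplotlib 3.10.9.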

Additional observations from a re-analysis of the deposited data

How the results depend on the processing

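No paired analysis was possible because each group had 1 library. A value was taken to have stayed when it was within 1.5 times the reported one. This rule looks at the value alone and not at the share over all genes in the same setting. Among the main results, 23 of 25 alternative values stayed. The number of peaks at the members, 24, was 14 when peaks under the list's median score were left out, and ranged from 16 with the gene body only to 27 with a distance of 20 kb in the other settings. The median share of gene body was 1.05% without the widest 1% of peaks, and 8.12% with canonical transcripts in place of gene extents. The canonical TSS lay under a peak, or within 1 kb of it, at 7 or 8 members, against 42.9% to 55.7% of all genes. With any annotated TSS in its place the number was 9, against 57.6% of all genes. In the settings run, 8 or 9 members had a peak, against 54.9% to 71.5% of all genes. Pathway genes with a peak, 38 of 47, numbered 33 at a minimum score of 100, against 62.7% of all genes. At a minimum of the list's median they numbered 26 of 47, against 54.9% of all genes, so that count was near the share over all genes. Both settings were added for that list after the data were seen. Of 133 values for single members and smaller counts, 21 moved, with the causes not tested beyond the peaks each setting leaves out. With an unknown read depth, an absent peak cannot be told from signal below the authors' threshold. DNA copy number was not examined, so an absent peak also cannot be told from a locus missing in these cells.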

Other observations

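The genes EFNA4, EFNA3 and EFNA1 lie in a row within 71.2 kb of chromosome 1 and differed in where their peaks lay. From 10 kb before EFNA4 to 10 kb after EFNA1 there were 7 peaks, and 14.9% of the span from EFNA4 to EFNA1 was covered. EFNA4 had a 4962 bp peak over its TSS (155032009 to 155036970, score 505.54), which extended over the end of ADAM15, a metalloprotease gene. EFNA3 had none over its TSS but a 3501 bp peak over exons 2 to 5 (155056105 to 155059605, score 372.78), covering 40.2% of the gene. A 1515 bp peak between them (155042632 to 155044146, score 219.24) lay within 10 kb of both genes.

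Several peaks within 10 kb of other family genes covered the start of a neighbour. At EFNA2, 3 peaks lay upstream and 0 in the gene, the strongest of them (chromosome 19, 1272554 to 1277317, score 2374.9) over the start of FAM174C and part of CIRBP, a cold-inducible RNA-binding protein gene. The single peak at EFNB3 (chromosome 17, 7619926 to 7621434, score 286.97) covered the start of DNAH2, a dynein gene. The downstream peak at EPHA6 (chromosome 3, 97482664 to 97484142, score 467.67) covered the start of ARL6, a GTPase gene of cilia. EPHA10 had a 700 bp peak over exon 5 (score 57.04), with a GC content of 76.7% and a CpG ratio of 0.923, and none at its canonical TSS.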
